A study of Mus musculus with 6 samples.

Results

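Transcripts of 8 genes that build the myelin sheath were followed in sorted cells of the mouse cortex: Mbp, Mobp, Mal, Mog, Mag, Cldn11, Cnp and Ugt8a. They were chosen by name as structural and lipid-synthesis genes of myelin, with earlier results of these data known. All 8 were found among the 24421 genes of the deposited table. Every animal was a CD51-Flp mouse that had received AAV-GFAP-FSF-hM3D-mCherry after birth, a virus with the GFAP promoter, active mainly in astrocytes, and a cassette that opens only where Flp is present. CD51, for which the Flp line is named, is the integrin alpha V subunit. The receptor hM3D signals through Gq once bound by clozapine-N-oxide (CNO). Mice were given CNO (3 libraries, numbered 1, 2 and 3) or saline (3 libraries, numbered 3, 4 and 5) 2 times per day between postnatal days 7 and 21, and mCherry-positive cells labelled as astrocytes were sorted on day 21. The saline animals carried the same Flp allele and receptor, and no group given CNO without the receptor was analysed here, so an effect of CNO itself and one of the receptor cannot be told apart. The labels do not say whether a library is 1 animal or a pool, so the p-values below measure only the spread between these libraries.

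In the central nervous system myelin is made by oligodendrocytes, which wrap axons in many layers of their own membrane. Myelin basic protein (Mbp) and myelin-associated oligodendrocyte basic protein (Mobp) hold the cytoplasmic faces of these layers together, and their mRNAs are carried out of the cell body and translated near the growing sheath. Mal, Mog, Mag and Cldn11 encode membrane proteins of the sheath that are made on the endoplasmic reticulum, Cnp encodes an enzyme of its non-compact cytoplasmic channels, and Ugt8a makes the galactolipid galactosylceramide. Astrocytes are not known as a main source of any of these products.

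The promoters of the members were read from RefSeq on GRCm38.p6, the same assembly as the mm10 named in the submitters' processing notes, and 7 of the 8 members had an entry. The 250 bases before the start site are shown for 3 members whose levels did not overlap between CNO and saline and whose windows hold a match of the motifs below. Capitals mark ACAAAG, the core letters recognised by SOX factors such as Sox10, and CTGGNAC, each searched on both strands. CTGGNAC was searched as the MYRF core, for sites of the myelin regulatory factor Myrf. Any base was accepted at N, so the search may be looser than the sites themselves. No match of one motif overlapped a match of the other in these 3 windows.
Mobp (chr9:120149492-120149741, plus strand): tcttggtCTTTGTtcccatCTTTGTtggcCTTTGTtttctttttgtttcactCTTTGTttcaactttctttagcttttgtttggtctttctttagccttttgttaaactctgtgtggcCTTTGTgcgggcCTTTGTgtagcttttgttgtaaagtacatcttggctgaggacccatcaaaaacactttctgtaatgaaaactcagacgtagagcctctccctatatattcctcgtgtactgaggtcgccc
Mog (chr17:37023399-37023648, minus strand): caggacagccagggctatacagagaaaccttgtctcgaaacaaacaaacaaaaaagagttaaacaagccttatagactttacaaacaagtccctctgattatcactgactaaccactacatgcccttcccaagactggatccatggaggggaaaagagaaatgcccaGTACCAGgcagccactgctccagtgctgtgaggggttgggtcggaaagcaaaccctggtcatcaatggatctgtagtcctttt
Cnp (chr11:100574689-100574938, plus strand): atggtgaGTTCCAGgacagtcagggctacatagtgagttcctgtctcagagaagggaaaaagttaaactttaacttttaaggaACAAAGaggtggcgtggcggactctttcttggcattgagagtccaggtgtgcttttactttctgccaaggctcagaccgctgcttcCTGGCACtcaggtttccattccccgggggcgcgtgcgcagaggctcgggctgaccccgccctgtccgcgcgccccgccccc

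The Mobp window held 6 copies of the SOX core and no MYRF core. All 6 read CTTTGT on the printed strand, and they begin between positions -243 and -120 relative to the start site. Among 32817 promoter windows of the same length, 16.5% held at least 1 copy of ACAAAG, 0.137% held 3 or more, and Mobp was the only 1 with 6 copies. The Mog window held 1 MYRF core, beginning at position -83. The Cnp window held 1 SOX core and 2 MYRF cores, beginning at positions -243 and -81, and 16.1% of all windows held at least 1 MYRF core. A match is a string of letters and not a measured binding site. Of the 7 members with an entry, 3 (Mobp, Mag and Cnp) had a SOX core, 3 (Mog, Mag and Cnp) had a MYRF core, and 0 had the TATA box letters TATAAA on either strand. Mal, whose levels also did not overlap between groups, had 0 matches of either core, while Mag, whose levels overlapped, had both cores.

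Libraries held between 3908076 reads (CNO 1) and 19224186 reads (CNO 2), recovered from the deposited normalized counts. These are reads divided by a size factor for each library, and 1 read was worth 4.23 normalized counts in CNO 1 against 0.503 to 0.970 in the others. CNO libraries held a read for 8618 to 12820 genes and saline libraries for 14141 to 14491. Genes with a mean of at least 10 normalized counts over the libraries (13028 genes, all 8 members among them) were tested with limma on log2(normalized count + 1), so that a log2 fold change is the difference between the group means on that scale. Their median log2 fold change was -0.89, and the call rule was a Benjamini-Hochberg adjusted p under 0.05. Xist stood at 21466 to 35117 normalized counts in CNO 2, CNO 3 and saline 4 and at 25.4 to 885 in the other libraries, so the groups were not balanced in this transcript of the inactive X chromosome.

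Mbp (ranks 1 to 3 of all genes) and Mobp (ranks 5 to 13) were abundant in the sorted cells of both groups. Mag was low in both, and most of the 8 members were higher on average after CNO. Mbp and Mobp rose in the CNO libraries, and Mal, Mog and Cnp stood higher in each CNO library than in any saline library without passing the threshold. Ugt8a was higher on average with an overlap of 1 library, while Mag and Cldn11 overlapped widely and were almost absent from CNO 1. The members and the gene lists below were chosen with earlier results of these data known. Their counts beside all tested genes are therefore descriptive and not a test of the sets. In all, 2 of the 8 members passed as higher and 0 as lower in limma, beside 0.0154% of all tested genes called higher and 0% called lower. At an unadjusted p under 0.05, 6 of the 8 were higher and 0 lower, beside 2.28% and 7.25% of all tested genes. Without overlap and higher in CNO were 5 of the 8, and 0 were without overlap and lower, beside 4.57% and 12.5% of all tested genes. Among the 2239 tested genes with a mean of at least 1000, which 5 of the members reach in both group means, 16.4% were placed this way and the median log2 fold change was 0.35. Scaled to the library total (CPM) instead of the size factors, 3 of the 8 (Mbp, Mobp and Mog) were without overlap. With that scaling 0 members passed in limma, and 0 of all tested genes did.

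Mbp, the gene of myelin basic protein (chromosome 18, 82475146 to 82585637, plus strand, protein-coding, GRCm38), reached 1585698, 2963042 and 2713351 normalized counts with CNO (libraries 1, 2 and 3). With saline (libraries 3, 4 and 5) the values were 451368, 497181 and 604104. The groups did not overlap, and the lowest CNO library was 2.62-fold above the highest saline library. It was the most abundant gene of all in the 3 CNO libraries and in saline 5, and held rank 3 in saline 3 and rank 2 in saline 4. The means were 2420697 ± 733828 in CNO and 517551 ± 78379 in saline (SD, n = 3 each), with a log2 fold change of 2.19 ± 0.22 (SE, limma adjusted p = 0.00692). Gene counts here do not separate the classic Mbp transcripts from the golli transcripts of the same locus.

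Mobp (chromosome 9, 120149707 to 120181484, plus strand, protein-coding) moved almost in step with Mbp. CNO 1, 2 and 3 held 127222, 222529 and 173843 normalized counts, against 28199, 32393 and 41040 for saline 3, 4 and 5. No library of one group reached the other, and the lowest CNO value was 3.10-fold above the highest saline value. The log2 fold change was 2.35 ± 0.26 (SE, limma adjusted p = 0.00926), and Mobp held abundance rank 5 in each CNO library. These 2 were the genes with the smallest p of all 13028.

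The calls for Mbp and Mobp were not stable. As a ratio of means, Mbp was 4.68-fold and Mobp 5.15-fold higher in CNO by the authors' size factors, and 2.91-fold and 3.22-fold by CPM. Calls ended with any 1 library other than CNO 1 left out (limma adjusted p from 0.150 to 0.717), while the log2 fold changes stayed between 2.01 and 2.46 for Mbp and between 2.15 and 2.55 for Mobp over all 6 omissions. Without the variance trend, in which limma ties a gene's spread to its level, the SE for Mbp was 0.76 and the adjusted p 0.368. No tested gene passed in either direction without the trend, or in the omissions that ended the calls.

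Mal encodes a proteolipid of myelin membrane rafts (chromosome 2, 127633226 to 127656695, minus strand). CNO 1, 2 and 3 held 10949, 29527 and 22643 normalized counts, against 4014, 7115 and 6945 for saline 3, 4 and 5. The groups did not overlap, but CNO 1 lay only 1.54-fold above the highest saline library. The log2 fold change was 1.74 ± 0.42 and did not pass (limma adjusted p = 0.488), whereas limma-voom on the recovered reads called Mal as higher (adjusted p = 0.0260), as it did 0.123% of tested genes.

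Mog encodes an immunoglobulin-type protein on the outermost surface of the sheath, known as a target of antibodies in demyelinating disease (chromosome 17, 37010743 to 37023398, minus strand). CNO 1, 2 and 3 held 1982, 1222 and 1785 normalized counts, against 241, 130 and 442 for saline 3, 4 and 5. No library overlapped between groups, and the ratio of means, 6.14, was the highest of the 8 members. Its log2 fold change of 2.76 ± 0.76 carried a wider error than those of Mbp and Mobp and did not pass (limma adjusted p = 0.488). DESeq2 on the recovered reads called Mog as higher (adjusted p = 0.0325), with 0.507% of tested genes called in that direction. Mog differed from the other members in that CNO 1 was its highest library.

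Mag, the myelin-associated glycoprotein of the innermost layer facing the axon (chromosome 7, 30899176 to 30914873, minus strand), was low throughout. CNO 1, 2 and 3 held 0, 289 and 139 normalized counts, against 77.7, 199 and 295 for saline 3, 4 and 5. CNO 2 and CNO 3 fell within the saline range, and CNO 1 had 0 reads. At the depth of CNO 1 the lowest saline level would correspond to 18.4 reads, and a count of 0 allows up to 3 reads, or 12.7 normalized counts (counting error only). The log2 fold change of -2.28 ± 2.16 did not pass (limma adjusted p = 0.698), and without CNO 1 it was 0.27 ± 1.08.

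Cldn11 encodes claudin 11, which forms the tight junctions between myelin layers (chromosome 3, 31149920 to 31164324, plus strand). CNO 1, 2 and 3 held 12.7, 622 and 1145 normalized counts, against 507, 350 and 1655 for saline 3, 4 and 5. The value in CNO 1 rests on 3 reads, where the lowest saline level would have given 82.8. As for Mag, the other CNO libraries lay inside the saline range. The log2 fold change was -1.64 with all libraries (limma adjusted p = 0.689) and 0.34 ± 0.75 without CNO 1. The direction of Mag and Cldn11 thus rested on CNO 1.

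Cnp encodes the cyclic nucleotide phosphodiesterase of oligodendrocytes (chromosome 11, 100574904 to 100591729, plus strand). CNO 1, 2 and 3 held 9855, 13080 and 13830 normalized counts, against 4278, 2597 and 6201 for saline 3, 4 and 5. Each CNO library was higher than each saline library, by at least 1.59-fold. The log2 fold change was 1.56 ± 0.41 (limma adjusted p = 0.488). The span of Cnp overlaps that of Dnajc7 on the opposite strand, which averaged 1367 ± 727 normalized counts in CNO and 968 ± 240 in saline, and strand handling is not given in the sources used here.

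Ugt8a, the enzyme that makes galactosylceramide (chromosome 3, 125865271 to 125938619, minus strand), had 3465, 8568 and 9487 normalized counts in CNO 1, 2 and 3. The saline values were 1369, 1654 and 3705 in libraries 3, 4 and 5. Only CNO 1 lay within the saline range, just below saline 5. The log2 fold change was 1.69 ± 0.55 (limma adjusted p = 0.488). Leaving out CNO 1 or saline 5 separated the groups.

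**Figure D1:**
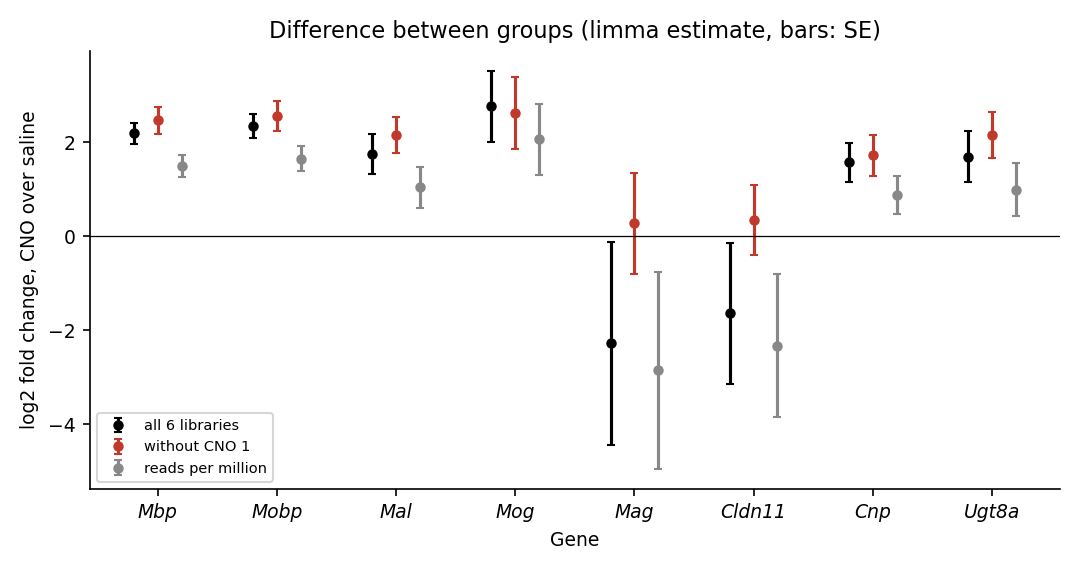
Log2 fold change of each gene, CNO over saline, with its SE, from all 6 libraries (black), without CNO 1 (red) and after scaling to CPM (grey). Mag and Cldn11 lie below 0 with all libraries and at 0.27 and 0.34 without CNO 1, while the other 6 genes lie above 0 in each of the 3 sets.

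Per kilobase of exon, the order of mean levels in CNO was Mbp, Mobp, Mal, Cnp, Ugt8a, Mog, Cldn11 and Mag. The level of Mbp was 285830 ± 86649 normalized counts per kilobase, that of Mobp 25483 ± 6958, that of Mal 7574 ± 3381 and that of Cnp 3368 ± 580 (SD, n = 3). Neighbours in that order overlapped between libraries for Ugt8a and Mog and for Cldn11 and Mag. In saline the order differed in that Cldn11 came before Mog, and neighbours overlapped from Mal down to Mog. There Mbp stood at 61111 ± 9255 and Mobp at 4946 ± 956 normalized counts per kilobase. Mbp and Mobp were thus set apart from the rest in each group, and the order of the less abundant members was less certain in saline.

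Of all reads in a library, the 8 genes together took 10.5% to 22.8% with CNO and 4.97% to 6.93% with saline, so the groups did not overlap. Mbp alone took 15.6% ± 5.65 and 5.35% ± 0.875 (SD, n = 3 each). Without Mbp, the other 7 genes took 1.40% ± 0.508 in CNO and 0.494% ± 0.121 in saline. The share of Mbp within the normalized counts of the 8 genes was nearly the same in the groups, 91.7% ± 0.643 and 91.6% ± 0.611.

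**Figure D2:**
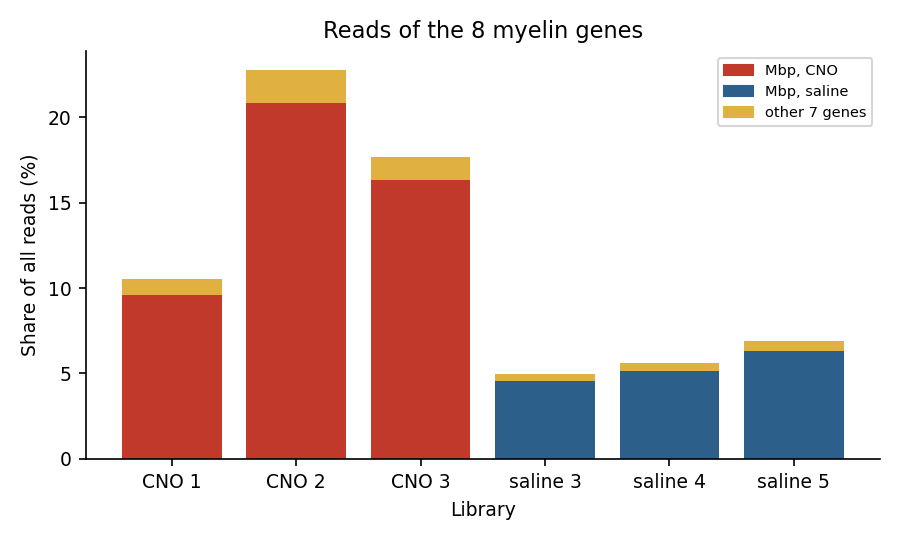
Share of all reads in each library taken by Mbp (red in CNO, blue in saline) and by the other 7 genes (yellow), in percent. The full bars range from 10.5% to 22.8% in CNO and from 4.97% to 6.93% in saline.

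Each member was also set against Mbp of the same library, as a difference of log2(normalized count + 1), which for well-covered genes hardly depends on the size factor. Mobp kept the closest ratio, at a log2 value of -3.78 ± 0.167 in CNO and -3.94 ± 0.0604 in saline (SD, n = 3 each). The difference of 0.16 overlapped between groups (2-sided exact permutation p = 0.3, adjusted p = 0.42 over 7 ratios). Relative to Mbp, Mal differed by -0.45, Cnp by -0.62, Ugt8a by -0.50 and Mog by 0.57, all with overlap and with exact permutation p from 0.2 to 0.5. Mag and Cldn11 were lower relative to Mbp in each CNO library than in any saline library, by -4.47 and -3.82 on the log2 scale (exact permutation p = 0.1 for each, the smallest that 3 against 3 allows, adjusted p = 0.35). Mag had 0 reads in CNO 1, so its ratio there is set by the pseudocount and the size factor, and the difference was -4.80 with a pseudocount of 0.5 and -3.50 with 8. Without CNO 1 the differences were -2.19 for Mag and -2.12 for Cldn11. Mbp itself had a log2 fold change of 2.19, against a median of -0.89 for all tested genes. A lower ratio to Mbp is therefore not particular to these genes, and the share of all genes placed this way was not computed. No ratio could pass 0.05 in a design of this size.

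**Figure D3:**
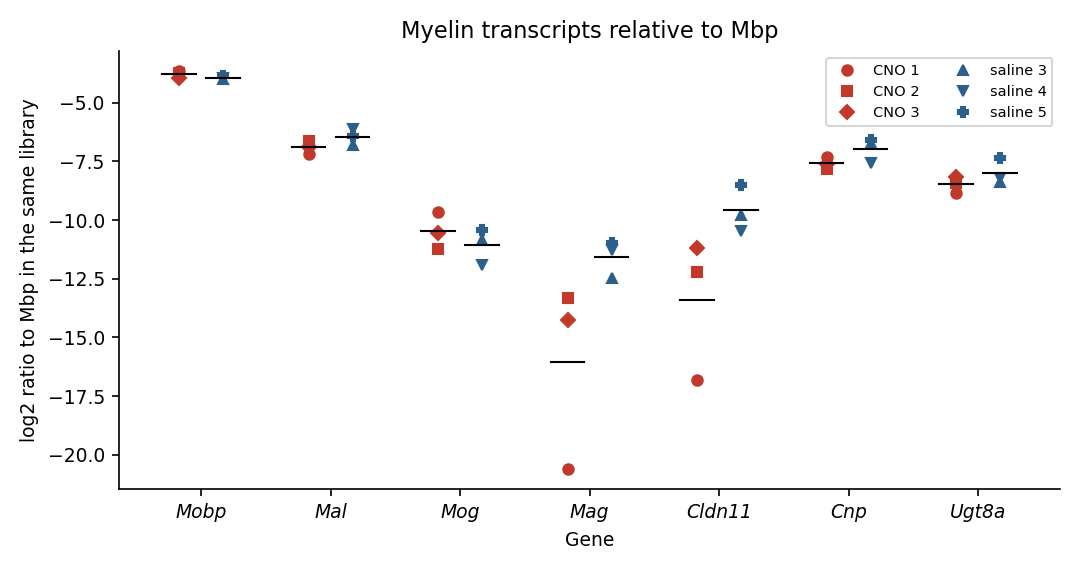
Log2 ratio of each gene to Mbp in the same library, with CNO libraries in red, saline libraries in blue and group means as black bars. Mobp stays within a narrow band in all 6 libraries, and for Mag and Cldn11 every red point lies below every blue point.

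Within each group the same library was often the extreme one. CNO 1 was the lowest CNO library for 7 of the 8 genes and the highest for Mog, and saline 5 was the highest saline library for 7 of the 8, with Mal the exception. Over the 6 libraries, Pearson's r of the log2 levels with Mbp was 0.996 for Mobp, 0.96 for Mal, 0.93 for Cnp, 0.92 for Ugt8a, 0.89 for Mog, -0.11 for Cldn11 and -0.14 for Mag. Mag and Cldn11 followed each other (r = 0.94). These values describe 6 libraries that share a treatment group and a size factor, and in the first 5 genes they largely restate the gap between groups.

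Because the groups differed in Xist, members were also compared within libraries of high Xist (CNO 2 and 3 against saline 4) and of low Xist (CNO 1 against saline 3 and 5). Differences of mean log2 levels in the high and the low class were 2.51 and 1.60 for Mbp, 2.60 and 1.90 for Mobp, 1.86 and 1.05 for Mal, and 3.50 and 2.60 for Mog. They were 2.37 and 0.94 for Cnp and 2.45 and 0.62 for Ugt8a, so these 6 genes were higher in CNO within each class. Mag differed by 0.01 and -7.25 and Cldn11 by 1.27 and -6.07. Saline 4, the only saline library of the high class, also held 213 normalized counts of the Y-linked Ddx3y, against 6.66 and 1.94 in CNO 2 and 3, so its class is uncertain. CNO 1 was the only CNO library of the low class, so class and library cannot be told apart there. With the Xist class as a covariate in limma, and saline 4 taken as high, Mbp (adjusted p = 1.78e-04) and Mobp (adjusted p = 0.00234) passed. Each class held only 1 library of 1 of the groups, so this fit cannot separate the class from single libraries.

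By correlation over the 6 libraries among 8302 other genes with a mean of at least 100, the genes nearest to Mbp were Prr18 (r = 0.998), Mobp (0.996) and Ank3 (0.994). Nearest to Mobp were Prr18 (0.996), Mbp (0.996) and S100b (0.995), and nearest to Mal were Ermn (0.988), Ppp2ca (0.986) and Wdr1 (0.984). Ank3 encodes the membrane scaffold ankyrin G, S100b a calcium-binding protein of glia and Ermn a cytoskeletal protein of myelinating oligodendrocytes. Cnp lay closest to Tbc1d12 (0.992), Phldb1 (0.992) and Qk (0.992), and Ugt8a to Sirt2 (0.989), Kif5b (0.987) and Map1b (0.987). Qk encodes quaking, an RNA-binding protein that acts on Mbp mRNA, and Sirt2 a deacetylase abundant in myelin. Mog lay closest to Papss1 (0.980), Foxo4 (0.977) and Dstn (0.977). The neighbours of Mag (Lin9, Rcbtb1 and Polr1a) and of Cldn11 (Lst1, Ctsz and Spats2l) shared with them a low level in CNO 1, between 0 and 21.1 normalized counts. None of these neighbours other than Mbp and Mobp passed in limma.

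Of 33 listed genes of other myelin and mature oligodendrocyte proteins in the table, 28 were tested, 0 passed in limma in either direction, and 22 had a log2 fold change above 0, beside 31.7% of all tested genes and 68.7% of those with a mean of at least 1000. The median was 1.25, and 11 of the 28 were without overlap and higher in CNO, beside 4.57% of all tested genes and 16.4% of those with a mean of at least 1000. Prr18, a proline-rich protein of oligodendrocytes, averaged 9589 ± 3412 normalized counts with CNO against 1419 ± 408 with saline (limma adjusted p = 0.344). Plekhb1 averaged 26067 ± 3851 and 7090 ± 3013 (0.387), Bcas1, a marker of oligodendrocytes that begin to myelinate, 23166 ± 6757 and 5830 ± 2346 (0.387), and Tppp, a tubulin-binding protein, 12407 ± 5812 and 3030 ± 495 (0.488). limma-voom called 6 of the list as higher (0.123% of tested genes) and limma with array weights 4 (0.0844% of tested genes). DESeq2 called 2 (0.507% of tested genes higher and 1.35% lower), and edgeR without a filter 2 (0.0785% of tested genes higher and 0.0181% lower).

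Of 14 genes of sphingolipid, galactolipid and plasmalogen synthesis, 0 passed, 4 lay above 0 and 10 below, near the 31.7% above 0 of all tested genes, and the median log2 fold change was -0.11 against -0.89 for all tested genes. Aspa, which frees acetate for lipid synthesis, averaged 37.8 ± 62.1 in CNO and 909 ± 1345 in saline, and Elovl7, a fatty acid elongase, 267 ± 355 and 905 ± 20.2 (limma adjusted p = 0.507 and 0.523). Gltp, a glycolipid transfer protein, averaged 1616 ± 647 and 645 ± 808, with overlap. Of 6 genes of galactolipid breakdown 0 passed, and Galc, the lysosomal enzyme that degrades the product of Ugt8a, had 0, 23.7 and 13.6 normalized counts with CNO (libraries 1, 2 and 3) against 567, 257 and 237 with saline (libraries 3, 4 and 5). Of these 6 genes, 3 lay above 0 and 3 below, and 1 (Galc) was without overlap and lower, beside 12.5% of all tested genes. Galc did not pass in limma (adjusted p = 0.488). DESeq2 called it as lower (adjusted p = 0.00862), with 1.35% of tested genes called in that direction.

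Of 10 genes that carry and regulate Mbp mRNA, 0 passed, 7 lay above 0 and 3 were without overlap and higher, with a median of 0.26. Of the tested genes with a mean of at least 1000, 68.7% lay above 0 and 16.4% were without overlap and higher, with a median of 0.35, so the counts above 0 and the median were near that background. Qk averaged 47631 ± 2549 normalized counts in CNO and 26326 ± 7846 in saline, without overlap. Kif1b, a kinesin needed for Mbp mRNA transport, averaged 9642 ± 2607 and 5445 ± 471, and Ckap5, a microtubule-binding protein, 7710 ± 4047 and 2559 ± 498, likewise without overlap (limma adjusted p from 0.488 to 0.526 for the 3). Of 10 further RNAs known from myelin fractions, 0 passed, 8 lay above 0 and the median was 0.59. In this list Sh3gl3, an endophilin, had the highest log2 fold change, 3.11, with 3298 ± 1309 against 380 ± 140 (limma adjusted p = 0.472, DESeq2 adjusted p = 0.00205), and Fth1, the ferritin heavy chain, averaged 38400 ± 11298 against 10330 ± 5009 (limma adjusted p = 0.387).

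Regulators of myelin genes and markers of earlier stages were read beside all tested genes, of which 31.7% lay above 0 with a median of -0.89. Of 9 tested regulators, 0 passed, 3 lay above 0 and the median was -1.04, near that background. Without overlap and higher were 2 of the 9, Olig1 and Sox8, and 0 were without overlap and lower, beside 4.57% and 12.5% of all tested genes. The lineage transcription factor Olig1 had a mean of 3719 ± 1788 with CNO against 858 ± 440 with saline (limma adjusted p = 0.488). For Sox8 the means were 1194 ± 859 and 413 ± 258 (limma adjusted p = 0.572). Olig2 overlapped, with means of 297 ± 272 and 564 ± 435. Myrf, which switches on myelin genes and was chosen for mention because its motif is shown above, had 0, 191 and 2144 normalized counts with CNO (libraries 1, 2 and 3) against 218, 199 and 401 with saline (libraries 3, 4 and 5). Sox10, mentioned for the same reason, had 12.7, 255 and 2252 against 337, 130 and 166. Both were lowest in CNO 1 and highest in CNO 3, and the groups overlapped. Of 8 precursor markers 0 passed and 2 lay above 0 (median -0.83), also near the background of all tested genes. Of 6 genes of newly formed oligodendrocytes 0 passed and 2 lay above 0 (median -0.22). In this list 1 gene, Enpp6, was without overlap and higher, with 2243 ± 746 in CNO against 1039 ± 312 in saline (limma adjusted p = 0.552).

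**Figure D4:**
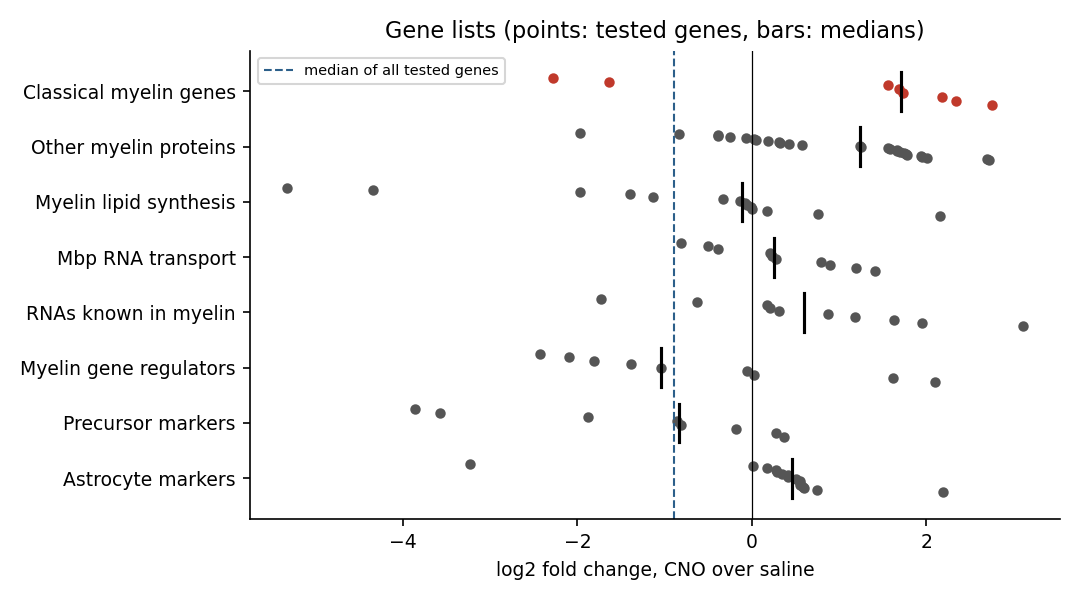
Log2 fold changes, CNO over saline, of the tested genes in 8 lists, with the median of each list as a black bar and the median of all tested genes (-0.89) as a dashed line. The classical myelin genes have a median of 1.71 and the other myelin proteins of 1.25, while lipid synthesis genes centre at -0.11 and regulators at -1.04.

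Markers of other cell types were read beside these results. Astrocyte markers were present in every library, 16 of 16 were tested, and 0 passed in limma. A log2 fold change above 0 was found for 15 of them (median 0.46), against 31.7% and a median of -0.89 for all tested genes. Gfap, the only marker below 0, had 4.23, 952 and 59.2 normalized counts with CNO (libraries 1, 2 and 3). With saline (libraries 3, 4 and 5) Gfap had 1307, 374 and 507, and the groups overlapped (limma adjusted p = 0.558). Among tested genes with a mean of at least 1000, which most of these markers reach, 68.7% lay above 0. The median there was 0.35, so the median of the markers was near that background. Their summed level was 210860 to 754218 normalized counts in CNO and 247560 to 376001 in saline, so the summed levels overlapped. S100b, named above as a neighbour of Mobp, averaged 4782 ± 1102 against 1031 ± 169 without overlap (limma adjusted p = 0.488), and the part of the astrocyte markers in the result was not tested. All 14 microglia and macrophage markers were tested, 0 passed, and their sums of 97324 to 239780 and 128185 to 164878 overlapped as well. Neuron markers summed to 2141 to 3355 and 1584 to 3004 normalized counts, and endothelial and mural markers to 983 to 7105 and 1307 to 2836. As shares of reads, astrocyte markers took 1.27% to 4.57% with CNO and 2.58% to 3.81% with saline, less than the 8 myelin genes in each library. In such sorted pools, more oligodendrocytes or their fragments and more myelin RNA per cell cannot be told apart, and their part in the result was not tested.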

How the data were processed

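RNA from sorted cells was sequenced in 6 libraries, each made from 10 ng of total RNA per the labels' protocols. The authors deposited 1 table of a signal per gene and library, read counts that they had divided by 1 size factor per library. Tools named by the submitters' processing notes, with no roles, are STAR 2.5.0a, DESeq2 1.20.0, Trimmomatic 0.4, MultiQC 0.9 and FastQC 0.10.1, and the build is mm10. How reads were assigned to genes, with which annotation and strand setting, is not given in the sources used here. In each library 100% of values were whole multiples of 1 step (tolerance 1e-06), which gave back whole reads.

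Groups and library numbers came from the labels. Genes with a mean of at least 10 were tested with limma 3.58.1 in R 4.3.3 on log2 with a pseudocount of 1 (variance trend, 2-sided, Benjamini-Hochberg over 13028 genes). The method was tested on simulated data. Ratios to Mbp were compared by exact permutation over libraries. The alternatives were other pseudocounts, filters, scalings, weights, an Xist covariate, thinning to 3908076 reads, each library left out, and limma-voom, edgeR 4.0.16 and DESeq2 1.42.0 on recovered reads.

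The 8 members and the gene lists were chosen with earlier results of these data known. Named besides them were, per list, up to 4 genes with the smallest p and, per member, the 3 genes nearest by correlation (predicted models left out). Some eligible genes are not named. Coordinates and exon lengths (union of exons) are from GENCODE mouse release 21 on GRCm38, and promoter sequences from RefSeq on GRCm38.p6.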

Additional observations from a re-analysis of the deposited data

How the results depend on the processing

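No paired analysis was possible because the groups share only 1 library number, which the labels do not tie to a litter or day. Against 2 members called, 0 were called with a mean filter of 50, with only genes read in every library, with quantile scaling, with CPM (library total, or total without Mbp), without the variance trend and in edgeR with the same filter, and 0 to 2 with 1 library left out, CNO 1 being the only omission that kept 2. Each setting or omission with 0 members called also called 0 of all tested genes in either direction. limma-voom called 3 by adding Mal, with 16 of all tested genes higher and 0 lower. DESeq2 called 3 by adding Mog, with 66 of all tested genes higher and 176 lower. edgeR without a filter called 2 members, with 13 of all tested genes higher and 3 lower. The 7 remaining alternatives called 2 members, with 11 genes higher under array weights and only these 2 in the rest. Of the other myelin proteins, against 0 called, array weights called 4, limma-voom 6, edgeR without a filter 2 and DESeq2 2, and 0 to 0 with 1 library left out. Added after seeing the data, a count of members without overlap was 3 with CPM (library total, or total without Mbp) against 5, and 5 to 6 with 1 library left out. With 1 library left out, the log2 fold change ranged from -3.82 to 0.27 for Mag and from -2.85 to 0.34 for Cldn11, above 0 only without CNO 1. Mag gave no value where a read in every library was required. Those of Mbp, Mobp, Mal, Mog, Cnp and Ugt8a stayed above 0 under all 23 alternatives, the lowest being 0.84 for Cnp and 0.87 for Mbp, with quantile scaling. Some alternatives could not change this. In limma the filters and the variance trend leave a gene's estimate as it was. Leaving out 1 library cannot reverse the sign where the groups do not overlap. Scaling to CPM moved the median log2 fold change of all tested genes from -0.89 to -1.52. Relative to the median of all tested genes Mbp stood at 3.07 and Mobp at 3.23. Filters were applied anew in each fit with a library left out. At the depth of CNO 1 the lowest saline levels would correspond to 18.4 reads of Mag and 82.8 of Cldn11. CNO 1 held 0 and 3 reads of them. With all libraries thinned to that depth, the log2 fold changes were -2.28 for Mag and -1.53 for Cldn11. Why CNO 1 was low for both was not tested.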
